A study of Mus musculus with 43 samples.

Results

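The immunity-related GTPases (IRG) and guanylate-binding proteins (GBP) are families of large, interferon-induced GTPases of mouse cells. The 10 genes described here are Irgm1, Irgm2, Igtp, Iigp1, Tgtp1 and Tgtp2 of the IRG family and Gbp2, Gbp3, Gbp6 and Gbp7 of the GBP family, out of 38983 genes shared by the 5 deposited tables. They were chosen because several of them were much higher in cells given small interfering RNA (siRNA) against the Myc genes than in cells given a control siRNA on day 7. That contrast is therefore given as a description, and the other conditions and the reprogramming courses are what is reported.

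Interferon gamma signals through paired receptor subunits and the kinases Jak1 and Jak2 to transcription factors. These act, together with interferon regulatory factors such as Irf1, on promoters of GTPase genes. Iigp1 and the Tgtp proteins are effector GTPases that load onto the vacuoles of intracellular parasites and help to break them open. Irgm1, Irgm2 and Igtp (also called Irgm3) are regulators that sit on the cell's own membranes and hold the effectors in their inactive state. GBPs of the mouse coat pathogen vacuoles and bacteria and promote inflammasome signalling. In fibroblasts these genes are classically low at rest and strongly induced by interferon gamma.

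The series holds 43 poly(A) RNA-seq libraries of mouse cells, 34 from reprogramming courses and 9 with altered Myc. The courses start from secondary mouse embryonic fibroblasts (MEF) with a doxycycline-inducible cassette of Oct4, Klf4, Sox2 and Myc. The Mbd3f/- system (1 floxed and 1 null allele of Mbd3) was sampled as MEF, on each of days 1 to 8 of doxycycline, and as an established line of induced pluripotent stem cells (iPSC) and an embryonic stem (ES) line. The Gatad2a-/- system was sampled likewise without ES. The wild-type systems WT-1 and WT-2 were sampled as MEF, on days 2, 4, 6 and 8, and as iPSC. WT-1 also has an ES library (V6.5), and WT-2 is isogenic to Gatad2a-/-. Mbd3 and Gatad2a encode subunits of NuRD, which remodels nucleosomes and removes acetyl groups from histones. All courses began in serum and LIF at low oxygen and moved to serum replacement with LIF and the MEK and GSK3 inhibitor pair known as 2i. Days 3 to 8, iPSC and ES grew on irradiated human fibroblasts, so time, medium and feeder layer change together.

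The Myc libraries are all of Mbd3f/- cells. Those labelled OSK plus Myc, Myc alone and OSK alone (OSK: Oct4, Sox2 and Klf4) were taken on day 4. The others come from a secondary Mbd3f/- OSK line without a Myc transgene, derived through iPSC and blastocyst chimaeras. Its MEF were transfected with siRNA before and at the start of doxycycline: siMyc, a mixture against Myc, Mycl and Mycn, taken on days 3 and 7, or si-Scramble, taken on day 7 and as MEF (2 libraries). A further library was taken on day 3 with a Myc inhibitor, which the labels do not name. Apart from si-Scramble MEF, each group is 1 library.

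Values are FPKM, fragments per transcript length and per mapped fragments, so levels can be compared between genes. The 5 tables were normalized separately, and levels from different tables are set side by side without a test. Each library listed between 12266 and 16896 genes with an FPKM of 1 or more, and the sequencing depth is unknown. Mbd3 was at an FPKM of 36.3 to 96.5 in Mbd3f/- and 62.7 to 84.6 in Gatad2a-/-, against 75.3 to 117 in WT-1 and 53.0 to 135 in WT-2. Gatad2a was at 8.59 to 14.7 in Gatad2a-/-, against 9.17 to 38.5 in WT-2. Neither gene was listed at 0 in its own mutant; RNA of a disrupted allele can be counted, and which exons are disrupted is not stated in the labels.

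The labels' MEF carry fibroblast markers: all 6 of Col1a1, Col1a2, Thy1, Postn, Twist2 and Pdgfra were at an FPKM of at least 1 in MEF of every course. They also carry macrophage markers in 3 of the 4 systems. The summed FPKM of 9 macrophage markers (among them Ptprc, Csf1r, Tyrobp and Lyz2) was 1266 in Mbd3f/- MEF, 267 in Gatad2a-/- MEF, 11.7 in WT-1 MEF and 4787 in WT-2 MEF. In WT-2 it stayed between 4234 and 8484 on days 2 to 8. These sums are given again beside the results they move with. Of 8 markers of T and NK cells, none reached an FPKM of 1 in MEF of the 4 courses.

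The members lie on chromosomes 3, 5, 11 and 18 (GRCm38, GENCODE M21), those of chromosome 11 in separate stretches. Gbp7, Gbp3 and Gbp2 lie on the plus strand of chromosome 3, at 142530342 to 142550149, 142560026 to 142573209 and 142620602 to 142638008. Irgm1 (48861968 to 48871683), Tgtp1 (48985327 to 48994172) and Tgtp2 (49057194 to 49064206) lie on the minus strand of chromosome 11. Igtp (58199556 to 58207591) and Irgm2 (58199618 to 58222782) lie on its plus strand, where their annotated spans overlap. Iigp1 covers 60376027 to 60392634 of chromosome 18, plus strand. The identifier that the tables pair with Gbp6 (ENSMUSG00000079362) is called Gm43302 in GENCODE M21 and covers 105214907 to 105293695 of chromosome 5, minus strand. It spans the annotated genes Gbp6 and Gbp10, and the tables' symbol is kept here.

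Several members are near-copies, so their values depend on how the authors' tool divided shared reads. Of all 50-base stretches in the annotated transcripts, 81.2% of those of Tgtp1 also occur in another gene (79.4% in Tgtp2), and 86.6% of those of Tgtp2 (85.8% in Tgtp1). For the Gbp6 entry the share is 100%, with 93.0% found in the annotated Gbp6 gene. It is 12.7% for Gbp7, 11.8% for Igtp, 7.77% for Irgm2, 3.75% for Gbp3, 2.03% for Gbp2, 1.69% for Iigp1 and 0.31% for Irgm1. The split between Tgtp1 and Tgtp2, and the level of the Gbp6 entry against Gbp6 and Gbp10, are therefore uncertain, while Irgm1, Iigp1, Gbp2 and Gbp3 share few such stretches.

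The promoters of 8 members (all but Iigp1 and the Gbp6 entry), from RefSeq (GRCm38.p6), are printed as the 100 bases before the annotated start. They are shown because all 8 genes were at least 2-fold lower in the library labelled OSK plus Myc than in that labelled OSK alone. Iigp1 and the Gbp6 entry were lower there too (log2 ratios of -3.07 and -2.56). Their promoters are not reported here, so the motif counts below leave them out. Each line reads 5′ to 3′ on the gene's strand. Capitals mark matches to the interferon-stimulated response element (ISRE; GAAA, any 2 bases, GAAA, or on the other strand TTTC, any 2 bases, TTTC) and to the gamma-activated site (GAS; TTCNNNGAA, the same on both strands).
Tgtp1, chr11:48992247-48992346, minus strand: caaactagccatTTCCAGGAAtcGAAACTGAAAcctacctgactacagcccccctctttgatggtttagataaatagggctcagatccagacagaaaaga
Tgtp2, chr11:49064213-49064312, minus strand: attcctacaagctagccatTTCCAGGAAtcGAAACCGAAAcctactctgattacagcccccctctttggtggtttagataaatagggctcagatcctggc
Igtp, chr11:58199456-58199555, plus strand: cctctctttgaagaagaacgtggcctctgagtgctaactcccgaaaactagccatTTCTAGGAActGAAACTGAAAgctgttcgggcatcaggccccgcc
Irgm2, chr11:58214877-58214976, plus strand: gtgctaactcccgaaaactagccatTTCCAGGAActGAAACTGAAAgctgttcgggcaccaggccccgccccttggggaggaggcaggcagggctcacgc
Irgm1, chr11:48871421-48871520, minus strand: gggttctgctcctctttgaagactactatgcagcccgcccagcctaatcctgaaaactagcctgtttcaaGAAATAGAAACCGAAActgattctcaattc
Gbp7, chr3:142530236-142530335, plus strand: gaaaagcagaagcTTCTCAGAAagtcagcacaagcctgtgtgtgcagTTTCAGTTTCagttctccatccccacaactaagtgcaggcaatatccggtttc
Gbp3, chr3:142559944-142560043, plus strand: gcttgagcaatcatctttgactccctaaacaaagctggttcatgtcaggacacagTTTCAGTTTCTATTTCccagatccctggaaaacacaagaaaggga
Gbp2, chr3:142620563-142620662, plus strand: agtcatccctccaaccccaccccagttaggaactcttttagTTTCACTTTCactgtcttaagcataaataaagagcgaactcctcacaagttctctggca

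An ISRE match lay in the 300 bases around the start (250 before, 50 after) of all 8 of these members, against 3.44% of 32851 RefSeq promoters. In the printed 100-base window the share of all promoters was 0.983%. A GAS match lay in 5 of the 8 (Tgtp1, Tgtp2, Igtp, Irgm2 and Gbp7), against 8.30% of all promoters. In Tgtp1, Tgtp2, Igtp and Irgm2 the 2 motifs stood in the same order with 2 bases between them. This joined form, GAS, any 2 bases, ISRE, looked for after it had been seen, was found on either strand in 5 of the 32851 promoters, 0.0152%. Those 5 promoters belong to these 4 members and to Gm12185, a predicted gene that overlaps Tgtp1 on chromosome 11. The 4 members are related genes, so these are not independent occurrences. Aligned over the printed windows, Tgtp1 and Tgtp2 were 79.6% identical. Igtp and Irgm2 were 52.3% identical, with nearly the same bases around the motifs. The E-box CACGTG, the sequence bound by Myc with its partner Max, lay in 0 of the 8 and in 7.15% of all promoters. No ISRE match overlapped a GAS match in these promoters. A match describes letters in a window and is not evidence that a factor binds there.

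**Figure D1:**
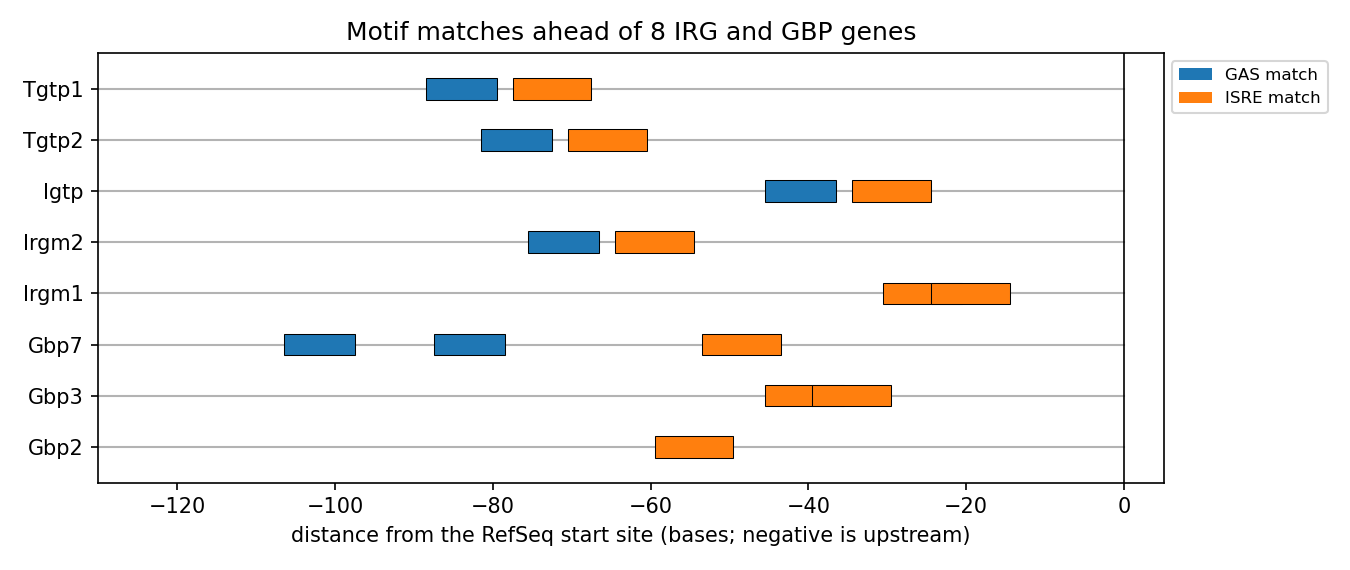
Positions of ISRE and GAS matches ahead of the RefSeq start site of 8 members, in bases; the order of genes puts those with the joined motif at the top. The GAS and ISRE matches of Tgtp1, Tgtp2, Igtp and Irgm2 are 2 bases apart, and Irgm1 and Gbp3 each hold 2 overlapping ISRE matches.

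Irgm1 was the highest of the 10 members in 40 of the 43 libraries. The exceptions were WT-1 ES (Igtp), siMyc day 7 (Tgtp2) and si-Scramble day 7 (Gbp2). All 10 members were at an FPKM of at least 1 in 9 libraries, and none was in 5. Of the 430 values, 189 were at 1 or more, and 50 of those belong to WT-2 MEF and days 2 to 8, where every member passed 1 in all 5 libraries.

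Along the course of WT-2 all 10 members were high. The regulator Irgm1 had an FPKM of 128 in WT-2 MEF, 64.7, 71.1, 114 and 56.8 on days 2, 4, 6 and 8, then 1.08 in iPSC. The effector Iigp1 had 67.0 in WT-2 MEF, 27.7, 31.0, 60.4 and 28.8 on days 2, 4, 6 and 8, then was listed at 0 in iPSC. Gbp3 followed the same outline, with 67.7 in MEF, 33.5, 34.4, 63.3 and 31.9 on days 2, 4, 6 and 8, then 0.0300 in iPSC. MEF and day 6 were therefore the high points of these genes, and iPSC the low point. Gbp2 had 59.4 in MEF, 31.9, 50.8, 67.4 and 42.3 on days 2 to 8, then 0.322 in iPSC. Igtp had 51.1 in MEF, 22.6, 37.0, 51.0 and 17.8 on those days, then 0.665 in iPSC. Irgm2, Tgtp2, Gbp7 and Tgtp1 stood at 37.7, 30.2, 15.7 and 9.26 in MEF. The Gbp6 entry had 13.2 in MEF and was highest on day 6, at 27.6.

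The summed macrophage markers were highest in WT-2 on day 6 as well (8484), though Ptprc, the pan-leukocyte phosphatase CD45, had 30.9 in MEF, 14.3, 11.1, 9.51 and 5.20 on days 2 to 8. Tyrobp, an adaptor of myeloid receptors, had 582 in MEF, 427, 313, 511 and 287. Ifnb1, which encodes interferon beta, was at 3.31 in WT-2 MEF and at 0.374 or less in the other WT-2 libraries. It was at most 0.0367 in the other course libraries. In this bulk RNA, fewer cells of a type and less RNA per cell cannot be told apart, and the part of macrophages in the levels of the members in WT-2 was not tested.

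Gatad2a-/- cells, isogenic to WT-2, held far less of these mRNAs. The FPKM summed over the 10 members was 43.9 in Gatad2a-/- MEF, against 479 in WT-2 MEF. It was 41.5 in Mbd3f/- MEF and 99.2 in WT-1 MEF, so WT-2 MEF stood apart from all 3 others. On day 2 the sums were 7.41 in Gatad2a-/- and 228 in WT-2. On day 8 they were 6.21 in Gatad2a-/- and 226 in WT-2, and in iPSC 3.61 in Gatad2a-/- and 2.63 in WT-2. The macrophage marker sums differ in the same direction, 267 in Gatad2a-/- MEF and 4787 in WT-2 MEF. The tables are separate and each value is 1 library, so no test of this difference was made. In Gatad2a-/- MEF Irgm1 had 33.1, Gbp2 4.00, Irgm2 1.52, Igtp 1.24 and Tgtp1 1.07, and the other 5 members were below 1.

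Irgm1 was the one member that stayed above an FPKM of 1 through the whole Gatad2a-/- course. It had 33.1 in MEF, 13.2, 4.84, 2.94, 3.03, 2.17, 1.47, 3.30 and 2.63 on days 1 to 8, then 2.70 in iPSC. From day 2 on all other members of Gatad2a-/- were below 1. Gbp3 was higher on day 1 than in MEF: it had 0.597 in MEF, 2.60 on day 1 and 0.379 on day 2.

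In Mbd3f/- the same day 1 peak of Gbp3 was seen, together with one of Irgm1. Gbp3 had 3.50 in MEF, 15.7 on day 1, 2.42 on day 2 and 0.362 on day 3. Irgm1 had 14.2 in MEF, 49.8 on day 1, 10.1 on day 2, 2.05 on day 3, and 0.358, 0.229 and 0.395 on days 4, 5 and 6. It was higher again on days 7 and 8, with 8.59 and 13.1, against 2.84 in iPSC and 1.88 in ES. Igtp showed the same late return at a lower level, with 5.00 in MEF, 4.89 on day 1, between 0.0585 and 0.253 on days 4 to 6, 2.00 on day 7 and 1.90 on day 8. Iigp1 (1.84 in MEF), Tgtp1 (0.823), Tgtp2 (1.32) and the Gbp6 entry (1.12) were below 1 in every later Mbd3f/- library.

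The ubiquitin-like gene Isg15, a type I interferon response gene, was also highest on day 1 of Mbd3f/-, at 161, with 47.7 in MEF. The macrophage marker sum was 1266 in Mbd3f/- MEF and 622 on day 1, while Gatad2a-/- MEF had a sum of 267 and Gatad2a-/- day 1 one of 365. In Mbd3f/- the sum was 40.4, 37.8 and 46.9 on days 4, 5 and 6, when Irgm1 and Igtp were low, and 75.5 and 77.6 on days 7 and 8, when they were higher. In Mbd3f/- iPSC, where Irgm1 had 2.84 and Igtp 0.193, the sum was 170. On days 7 and 8 Ptprc was at most 0.0130 and Tyrobp at most 0.0660. The part of these markers in the day 1 and late values of the members was not tested.

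WT-1 showed another course, in which the Tgtp genes climbed while Irgm1 declined. Tgtp1 had 1.61 in MEF, 2.73, 11.8, 20.3 and 15.5 on days 2, 4, 6 and 8, then 0.120 in iPSC. Tgtp2 had 1.24 in MEF, 2.10, 6.99, 10.3 and 10.2 on those days, then 0.0612 in iPSC. Irgm1 had 80.8 in MEF, 69.0, 28.1, 21.3 and 18.9 on days 2 to 8, then 0.872 in iPSC. Iigp1, the other effector, stayed between 0.144 and 0.201 in WT-1 MEF and on days 2 to 8. Igtp and Irgm2 were nearly level, between 2.2 and 3.33 and between 1.73 and 2.23. The summed macrophage markers climbed with the Tgtp genes in WT-1: they were 11.7 in MEF, then 18.7, 39.4, 53.1 and 59.0 on days 2, 4, 6 and 8. Laptm5 made up most of that from day 4 on (29.4, 32.2 and 39.7), while Tyrobp was at most 0.585 and Ptprc at most 0.0341 up to day 8. In WT-1 iPSC, where Tgtp1 and Tgtp2 were low, the sum was 71.4. The part of these markers in the levels of the Tgtp genes was not tested. The DNA sensor gene Zbp1, an interferon-stimulated gene, had 0.193 in WT-1 MEF and 14.3, 13.1 and 25.9 on days 4, 6 and 8, while Isg15 had 7.04 in MEF and 2.98 to 4.34 on those days.

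**Figure D2:**
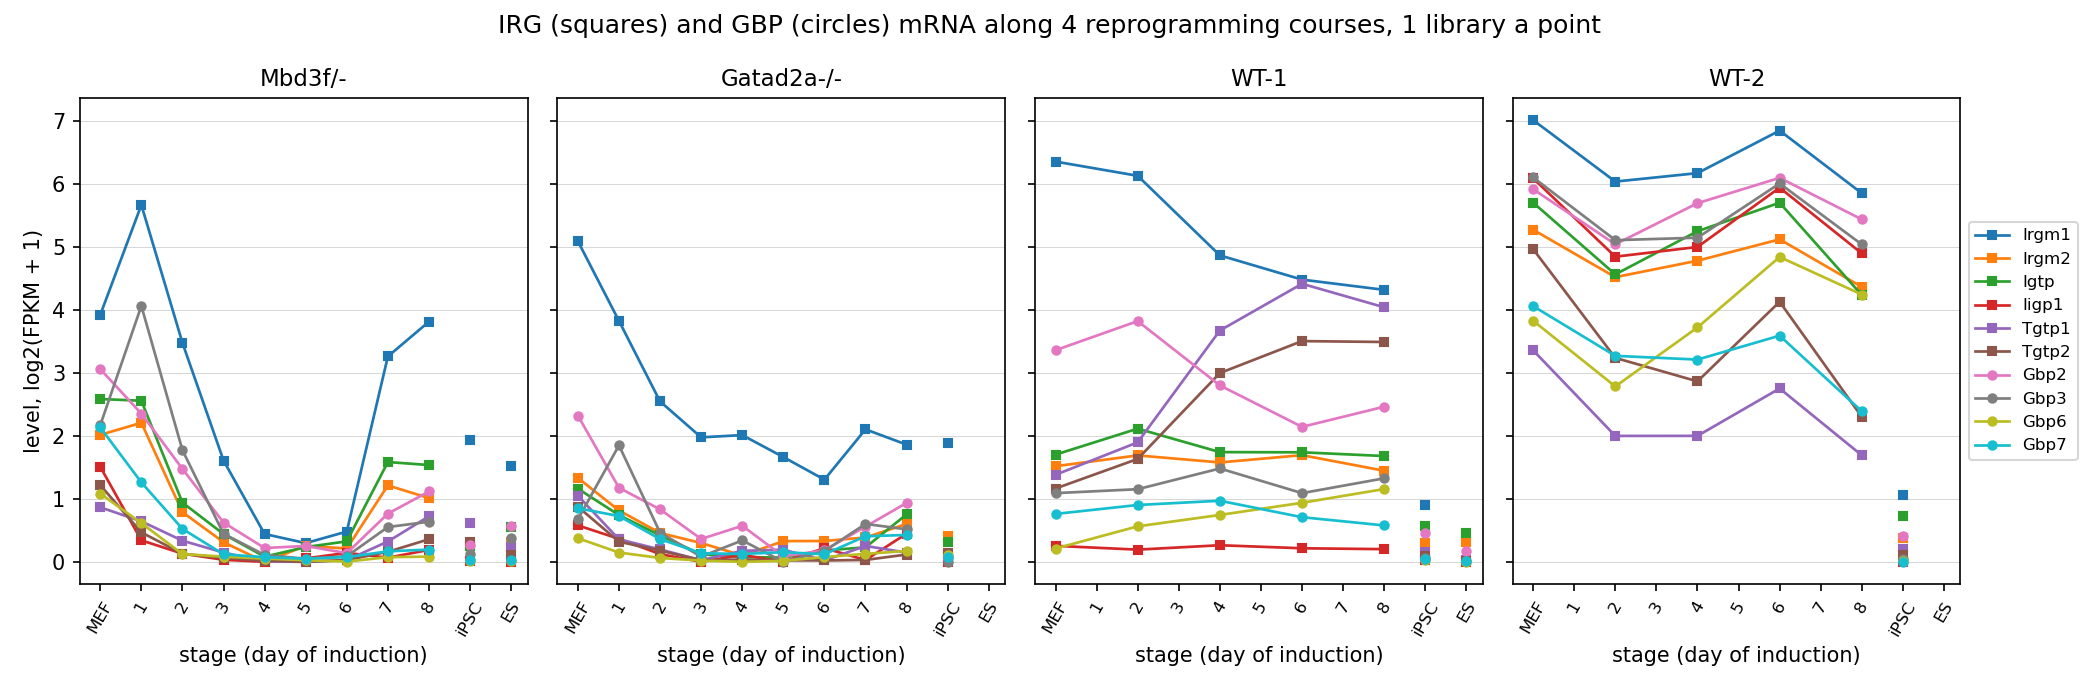
FPKM of the 10 members on a log2(FPKM + 1) axis by stage in Mbd3f/-, Gatad2a-/-, WT-1 and WT-2, 1 library a point; lines join MEF and days of induction, and iPSC and ES stand apart. All members are high in WT-2 until iPSC, Tgtp1 and Tgtp2 climb in WT-1, and Irgm1 and Gbp3 peak on day 1 in Mbd3f/-.

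In established pluripotent cells the members other than Irgm1 were below an FPKM of 1. In the 6 iPSC and ES libraries Irgm1 was at an FPKM of at least 1 in 4 (2.84 in Mbd3f/- iPSC, 1.88 in Mbd3f/- ES, 2.70 in Gatad2a-/- iPSC and 1.08 in WT-2 iPSC). Of the 54 values of the other 9 members in those libraries, 0 reached 1.

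Over the 4 systems, all 10 members fell in iPSC relative to MEF, against 23.9% of the 20305 genes tested that fell and 29.0% that rose. The model was fitted to log2(FPKM + 1) with limma, with the system as a block and n = 4 systems. Irgm1 fell by 4.15 ± 0.52 (SE, log2; limma adjusted p = 2.2e-05), with changes of -1.98 in Mbd3f/-, -3.20 in Gatad2a-/-, -5.45 in WT-1 and -5.96 in WT-2. Gbp2 fell by 3.37 ± 0.48 (adjusted p = 5.9e-05) and Gbp3 by 2.45 ± 0.63 (adjusted p = 0.0049). Igtp fell by 2.32 ± 0.50, Irgm2 by 2.19 ± 0.44 and Iigp1 by 2.10 ± 0.70. The smallest changes were those of Tgtp1, which fell by 1.40 ± 0.52 (adjusted p = 0.038), and the Gbp6 entry, which fell by 1.34 ± 0.46 (adjusted p = 0.027). The median of the members was -2.15, against 0.14 over all genes tested.

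The sign was the same in all 4 systems for each of the 10 members, but the sizes and the calls leaned on single systems. Changes in WT-2 ran from -3.16 for Tgtp1 to -6.09 for Iigp1, while the change of Iigp1 was -1.50 in Mbd3f/-, -0.58 in Gatad2a-/- and -0.23 in WT-1. Without WT-2, 7 members were called, against 18.6% of all genes tested that fell, and Gbp3 stood at -1.20 and Irgm1 at -4.02. Without Mbd3f/- 2 members were called (23.1% of all genes fell), without Gatad2a-/- 6 (24.4%), and without WT-1 10 (20.6%). The macrophage marker list fell between the same stages (7 of its 9 genes, median -3.76) and so did the fibroblast list (6 of 6, median -6.22). Their part in the change of the members was not tested.

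The steps before iPSC were compared separately. On day 2 relative to MEF in 4 systems, 0 of 10 members were called by limma and 0 had an unadjusted p under 0.05, against 0.754% of all genes called lower and 0.394% higher. All 10 estimates were below 0, from -0.39 ± 0.63 for Gbp3 to -1.05 ± 0.52 for Irgm1. Without WT-1 1 member was called, against 0.338% of all genes called lower and 0.363% higher. On day 8 relative to MEF, 0 of 10 members were called in the depleted systems (Mbd3f/- and Gatad2a-/-), where 15.3% of all genes were called lower and 19.0% higher. Unadjusted p was under 0.05 for 2 of them, Gbp2 (-1.66 ± 0.67, limma adjusted p = 0.072) and Irgm1 (-1.67 ± 0.73, adjusted p = 0.094). In the WT systems 0 of 10 were called on day 8, against 0.719% of all genes called lower, and 1 had an unadjusted p under 0.05 (Irgm1, -1.60 ± 0.73). The difference between depleted and WT systems was called for 0 of 10 members, with 0 at an unadjusted p under 0.05, against 7.73% of all genes lower and 8.40% higher. That difference was -1.02 ± 1.04 for Tgtp1 and -1.28 ± 0.93 for the Gbp6 entry. The SEs of the 10 differences ran from 0.84 to 1.39. Leaving out WT-2 gave 2 calls in each of these 3 day 8 comparisons, and leaving out WT-1 gave 3 in depleted systems, 1 in WT systems and 1 for the difference.

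**Figure D3:**
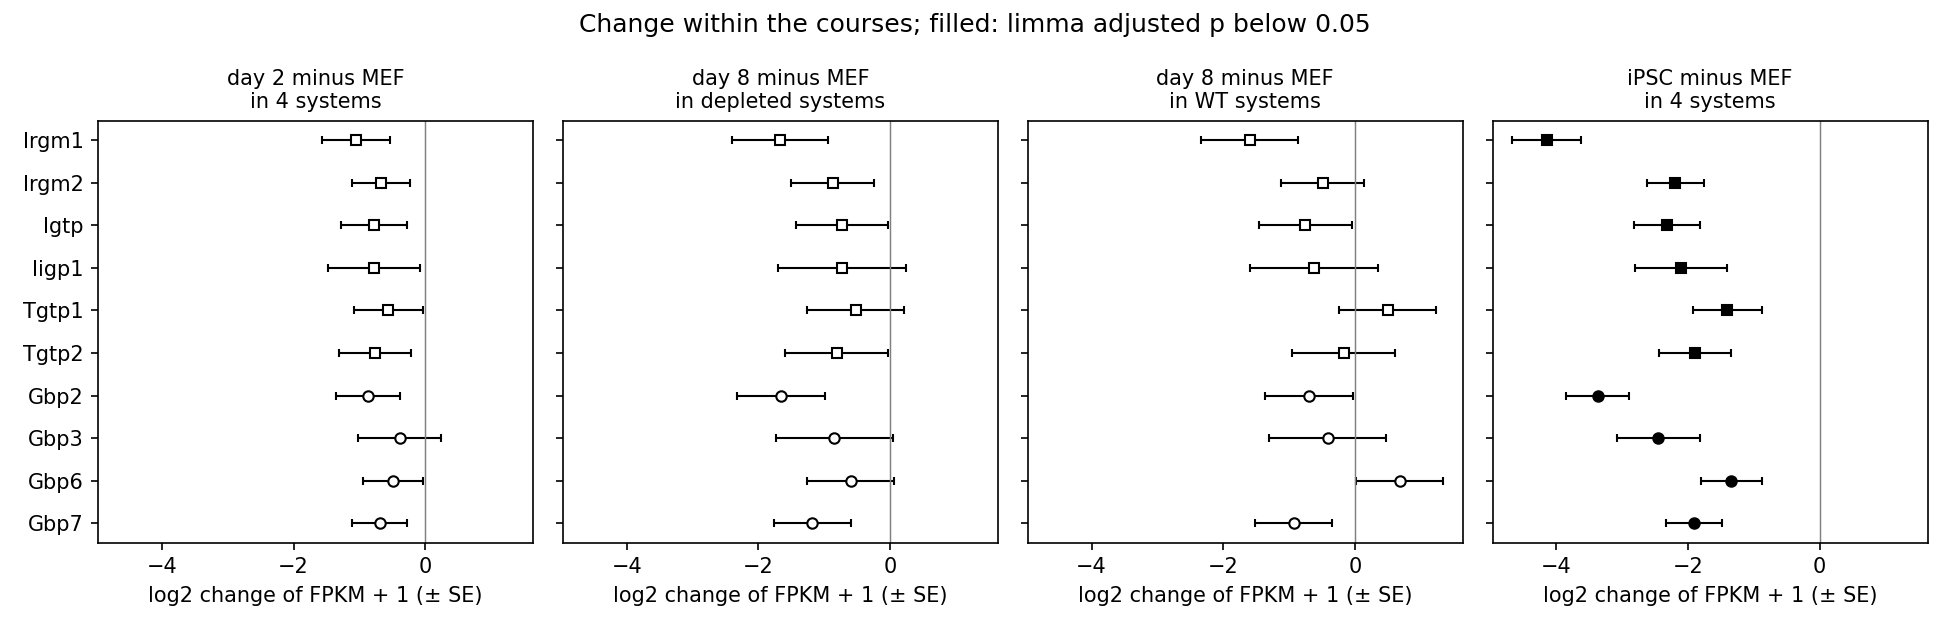
Log2 change of FPKM + 1 with its SE for each member in 4 comparisons within courses (squares IRG, circles GBP); filled symbols have a limma adjusted p below 0.05. All 10 members are filled for iPSC minus MEF, and none is filled on day 2 or day 8.

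In the day-by-day courses of Mbd3f/- and Gatad2a-/-, 6 members passed the filter on low values, and Iigp1, Tgtp1, Tgtp2 and the Gbp6 entry did not. On days 1 to 3 relative to MEF, Gbp2 fell by 1.55 ± 0.25 (limma adjusted p = 0.00057), Gbp7 by 0.97 ± 0.27 (adjusted p = 0.014), Irgm2 by 0.86 ± 0.29 (adjusted p = 0.037) and Igtp by 1.00 ± 0.36 (adjusted p = 0.048). This is 4 of the 6, against 14.2% of the 20198 genes tested that fell. Irgm1 was at -1.32 ± 0.69 (adjusted p = 0.17) and Gbp3 at 0.02 ± 0.44 (adjusted p = 0.99), the genes with the high day 1 values. Without Gatad2a-/- 1 of these members was called, without Mbd3f/- 0 (the days of the remaining system then stand as repeats of a period), and with quantile normalization 1.

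On days 4 to 8 relative to days 1 to 3, Irgm1 fell by 1.46 ± 0.43 (adjusted p = 0.023), Gbp3 by 1.14 ± 0.28 (adjusted p = 0.0073) and Gbp2 by 0.65 ± 0.16 (adjusted p = 0.0078) in the same limma fit. This is 3 of the 6, against 18.1% of all genes tested that fell, and it was 0 without either system. In iPSC relative to days 4 to 8, 0 of the 6 were called and 0 had an unadjusted p under 0.05, against 3.19% of all genes lower and 5.13% higher. Their estimates lay between -0.32 ± 0.24 for Gbp2 and 0.19 ± 0.65 for Irgm1.

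Other genes of the interferon pathway also fell in iPSC relative to MEF, in the same limma fit, where 23.9% of all genes tested fell. Among receptors and kinases, 6 of 7 genes fell, with Ifngr2 at -3.86 ± 0.32 and Ifngr1 at -3.01 ± 0.27 (the receptor subunits for interferon gamma) and Jak2 at -2.75 ± 0.25. Among transcription factors, 4 of 8 fell, among them Irf2 (-3.53 ± 0.31), Irf7 (-3.31 ± 0.85) and Nlrc5 (-1.26 ± 0.29), the activator of MHC class I genes. Of 16 antigen presentation genes 9 fell, led by B2m, the invariant MHC class I chain (-5.64 ± 0.48), and H2-Eb1 rose (2.71 ± 0.41). Of 20 type I interferon-stimulated genes 15 fell, led by Isg15 (-4.67 ± 0.90). Of 8 further IRG and GBP genes tested 5 fell: Irgq, Gvin1, Gbp2b, Gbp9 and Gbp5.

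The receptor genes were already lower by day 8. At that stage in depleted systems 6 of the 7 receptors and kinases fell, against 15.3% of all genes tested. More of a fall in depleted than in WT systems was called for 4 of the 7, against 7.73% of all genes. These were Ifngr2 (-2.85 ± 0.64, limma adjusted p = 0.0092), Ifnar2 (-2.25 ± 0.52), Jak2 (-2.06 ± 0.50) and Ifngr1 (-1.75 ± 0.54). No difference of this kind was called for the members, and whether the lists differ was not tested.

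The genes whose course was most like the median of the members were identified by Pearson correlation over the 34 course libraries, on log2(FPKM + 1) centred within each table. Among the 10 closest were H2-T10 (r = 0.963), Ifit1 (0.959), Ifit3 (0.959), Xdh (0.955), Ifih1 (0.950), Psmb8 (0.948), Trim30a (0.943), Tmem140 (0.942) and Rtp4 (0.928). The libraries of a table share their source cells and normalization, so these are descriptions. Among the members, Irgm2 (0.984) and Igtp (0.966), which overlap in the annotation, were closest to the median, and Tgtp1 was furthest from it (0.666). The pair of Tgtp1 and Iigp1 had the lowest correlation (0.483).

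In the Myc libraries the Myc genes were examined first. Myc had an FPKM of 3.16 in the library labelled OSK plus Myc and 0.510 in that labelled Myc alone, against 24.8 in that labelled OSK alone. Mouse Myc was thus low in both libraries labelled with added Myc. In the courses, whose cassettes include Myc, the summed FPKM of the Myc family on day 4 also varied. It was 1.16 in Mbd3f/- and 6.59 in WT-2, against 56.0 in Gatad2a-/- and 134 in WT-1. Whether the added Myc is counted in these values was not tested. Which Myc sequence was delivered is not stated in the labels, which serve here as names only. In siMyc cells Myc had 10.99 on day 7, against 16.2 in si-Scramble day 7, and 29.2 on day 3, against 30.5 and 26.5 in si-Scramble MEF. Mycn had 0.928 in siMyc day 7 and 1.47 in si-Scramble day 7, and Mycl had 3.31 in siMyc day 7 and 1.03 in si-Scramble day 7. Mycl was thus higher, not lower, in the library given siRNA against it. With the inhibitor on day 3 Myc had 29.4; an inhibitor need not change Myc mRNA. All comparisons below are between single libraries and have no test; a difference is counted when FPKM + 1 differed by at least 2-fold.

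The members were chosen on the contrast of siMyc with si-Scramble on day 7, so its values are a description. Tgtp1 had an FPKM of 182 in siMyc day 7, against 2.45 in si-Scramble day 7. Tgtp2 had 249 in siMyc and 5.14 in si-Scramble, and Iigp1 had 233 in siMyc and 8.89 in si-Scramble. These effector GTPases were low in the control and became 3 of the 4 highest members with siMyc. Of the regulators, Igtp had 147 in siMyc and 10.1 in si-Scramble, Irgm1 177 in siMyc and 22.3 in si-Scramble, and Irgm2 67.9 in siMyc and 8.18 in si-Scramble. The GBPs differed less: Gbp2 had 128 in siMyc and 32.5 in si-Scramble, Gbp3 50.9 in siMyc and 10.7 in si-Scramble, Gbp7 11.2 in siMyc and 3.00 in si-Scramble, and the Gbp6 entry 26.6 in siMyc and 13.5 in si-Scramble. By this contrast 9 members were higher by at least 2-fold, a size passed by 3.12% of all 16436 genes kept in this table (4.17% were lower by it). The member nearest to that size from above was Gbp7 (log2 ratio of FPKM + 1 of 1.61), and the one below it was the Gbp6 entry (0.93). The median log2 ratio was 4.15 for the 6 IRG and 1.78 for the 4 GBP members.

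Day 3 showed the same genes in siMyc cells at lower levels. Irgm1 had 60.4 in siMyc day 3, against 5.70 in inhibitor day 3 and 10.5 and 10.0 in si-Scramble MEF. Iigp1 had 19.2 in siMyc day 3, against 0.108 in inhibitor day 3 and 0.848 and 0.606 in si-Scramble MEF. Tgtp1 had 14.4, against 0.0226 with the inhibitor and 0.525 and 0.206 in MEF, and Tgtp2 14.2 in siMyc day 3, against 0.0228 with the inhibitor and 0.765 and 0.165 in MEF. Igtp had 15.3 in siMyc day 3, against 1.75 with the inhibitor, and 2.04 and 1.73 in MEF. The siMyc library was above both MEF libraries for all 10 members, with a median log2 ratio of 2.07 against -0.14 over all genes kept.

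Relative to si-Scramble MEF, 7 members were at least 2-fold higher in siMyc day 3, against 4.57% of all genes kept (8.35% were lower): the 6 IRG members and Gbp2. The log2 ratios of the other GBPs were 0.96 for Gbp3, 0.66 for the Gbp6 entry and 0.62 for Gbp7. A si-Scramble library of day 3 was not analysed here, so siRNA and the first days of induction change together in this comparison. Relative to the inhibitor on the same day, 9 members were at least 2-fold higher in siMyc, against 11.5% of all genes, with Gbp7 short of it (0.78). Transfection differs between these libraries as well, as far as the labels say. With the inhibitor, 0 members were at least 2-fold higher than in si-Scramble MEF and 1, Gbp2, was at least 2-fold lower (10.3% of all genes lower, 10.1% higher). Gbp2 had 1.69 with the inhibitor and 6.0 and 4.25 in MEF, and without the first MEF library its log2 ratio was -0.96, short of 2-fold.

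The control siRNA course also had more of these mRNAs on day 7. Relative to si-Scramble MEF, all 10 members were at least 2-fold higher in si-Scramble day 7, against 7.22% of all genes higher and 5.43% lower. The Gbp6 entry had 13.5 in si-Scramble day 7, against 0.440 and 0.461 in MEF. Gbp2 had 32.5 on day 7, against 6.0 and 4.25 in MEF, and Irgm1 22.3, against 10.5 and 10.0. Here the GBPs were ahead: their median log2 ratio was 2.47, and that of the IRG members was 1.77. Between the siMyc libraries, day 7 was at least 2-fold above day 3 for 10 members, against 10.3% of all genes (median log2 ratio of 3.35 for the members and 0.24 over all genes). Irgm1 had 177 in siMyc day 7 and 60.4 in siMyc day 3, and Gbp3 50.9 in siMyc day 7 and 3.12 in siMyc day 3. Both comparisons share a library with the one that chose the members and are not independent of it.

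The day 4 libraries share no library with that contrast. All 10 members were at least 2-fold lower in the library labelled OSK plus Myc than in that labelled OSK alone, against 15.7% of all genes kept; this direction rests on the labels as given. Irgm1 had 2.67 in OSK plus Myc, 3.03 in Myc alone and 177 in OSK alone. Tgtp1 had 0.362 in OSK plus Myc, 0.744 in Myc alone and 100 in OSK alone, and Igtp 0.298 in OSK plus Myc, 0.332 in Myc alone and 94.3 in OSK alone. Tgtp2 (63.6), Gbp2 (32.5), Irgm2 (31.4), Gbp3 (31.0) and Gbp7 (11.1) were also high in OSK alone, and in the libraries labelled with Myc no member other than Irgm1 was above 1.60. The log2 ratios of OSK plus Myc over OSK alone ran from -2.56 (the Gbp6 entry) to -6.21 (Tgtp1), with a median of -4.32 against -0.07 over all genes.

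Myc alone differed from OSK alone in the same way, with 10 members at least 2-fold lower (19.6% of all genes lower, 12.6% higher), and the 2 comparisons share the OSK alone library. OSK plus Myc and Myc alone did not differ by 2-fold in any member, against 8.82% of all genes higher and 3.98% lower. The library labelled OSK alone therefore stands apart from both others for all 10 genes. Both library pairs of the day 4 set have 1 library a side, and an effect of the library itself cannot be told apart from that of the factors. In the separately normalized Mbd3f/- course, whose cassette includes Myc, the 10 members summed to 0.766 on day 4, against 6.71 in OSK plus Myc and 554 in OSK alone. The cassettes of the other courses include Myc too. There the day 4 sums were 4.24 in Gatad2a-/-, 60.8 in WT-1 and 280.5 in WT-2. The part of Myc in these sums was not tested.

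**Figure D4:**
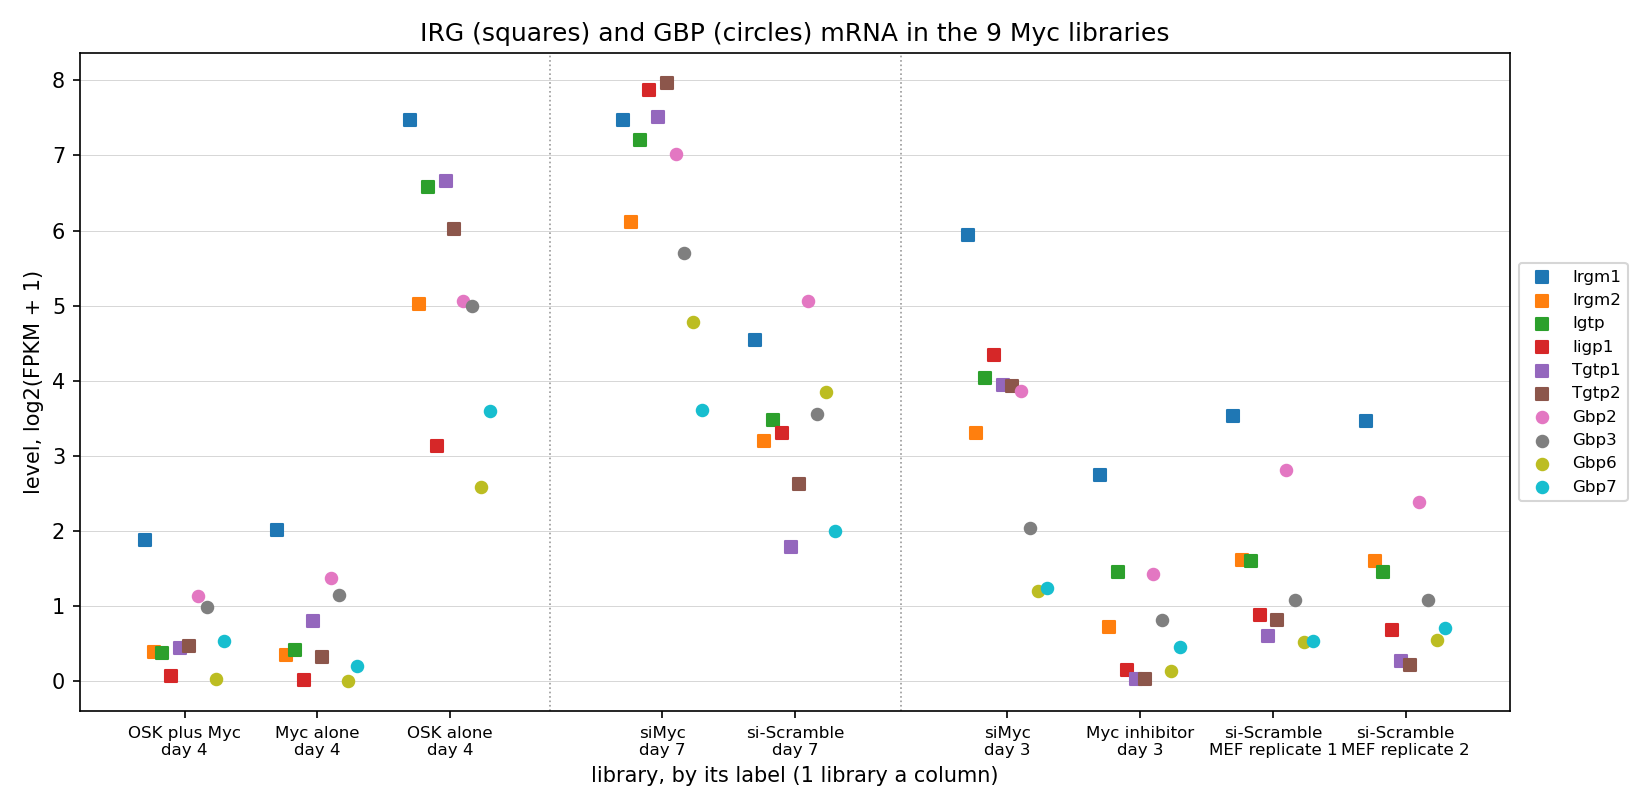
FPKM of the 10 members on a log2(FPKM + 1) axis in the 9 Myc libraries, by label, 1 library a column (squares IRG, circles GBP). OSK alone and both siMyc libraries are high, and OSK plus Myc, Myc alone and the inhibitor are low, with Irgm1 the highest member in each of the low ones. The control si-Scramble day 7 is not low: its members sum to 117, against 152 in siMyc day 3. Gbp2, Gbp3, Gbp7 and the Gbp6 entry are higher in that control than in siMyc day 3.

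The high libraries differed in which members led. Irgm1 stood at 177 in both siMyc day 7 and OSK alone. Iigp1 had 233 in siMyc day 7 and 7.80 in OSK alone, and the Gbp6 entry 26.6 in siMyc day 7 and 5.03 in OSK alone. Tgtp2 made up 57.8% of the FPKM assigned to Tgtp1 and Tgtp2 in siMyc day 7, 38.9% in OSK alone, 49.6% in siMyc day 3 and 67.8% in si-Scramble day 7. It made up 33.7% to 43.6% in WT-1 MEF and days 2 to 8, and 63.8% to 76.6% in WT-2. As 79.4% of the stretches of Tgtp1 also occur in Tgtp2, the sum is the firmer value: 430 in siMyc day 7, 7.59 in si-Scramble day 7 and 164 in OSK alone.

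The interferon pathway was described with the same lists. In siMyc day 7 relative to si-Scramble day 7, 3.12% of all genes kept were at least 2-fold higher. Of 15 antigen presentation genes 10 were, with a median log2 ratio of 1.38. Psmb8, a subunit of the immunoproteasome, had 263 in siMyc and 48.95 in si-Scramble, and the peptide transporter gene Tap1 had 137 in siMyc and 27.8 in si-Scramble. Of 7 interferon transcription factors 4 were at least 2-fold higher, among them Nlrc5, Stat2 and Irf1 (67.6 in siMyc, 32.8 in si-Scramble). Of 17 type I interferon-stimulated genes 7 were, with a median of 0.87; Isg15 had 60.1 in siMyc and 32.1 in si-Scramble. Of 10 further IRG and GBP genes 5 were, led by F830016B08Rik, an IRG-related gene (27.5 in siMyc, 0.116 in si-Scramble), Gvin1, Gbp2b and Gbp4. Of 7 receptors and kinases 0 differed by 2-fold.

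In OSK plus Myc relative to OSK alone, type I genes were part of the difference. Of all genes kept, 15.7% were at least 2-fold lower. At least 2-fold lower were 14 of 17 type I genes (median -2.49), 6 of 7 transcription factors (median -2.81), 10 of 15 antigen presentation genes (median -1.13, with H2-Eb1 higher) and 5 of 10 further IRG and GBP genes. Isg15 had 1.73 in OSK plus Myc and 104 in OSK alone, and Irf1 3.75 in OSK plus Myc and 48.8 in OSK alone. Psmb8 had 0.690 in OSK plus Myc and 28.3 in OSK alone. No receptor or kinase differed by 2-fold.

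In siMyc day 3 relative to the inhibitor, the counts of the pathway lists were smaller than that of the members. Beside their 9 of 10 (median 2.58), 5 of 17 type I genes (median 0.47) and 4 of 15 antigen presentation genes (median 0.10) were at least 2-fold higher. So were 2 of 7 transcription factors (median 0.45) and 3 of 10 further family genes (median 0.24), against 11.5% of all genes kept. The members were chosen for high values in siMyc day 7, which bears on their larger count. Gbp2b, the gene that shares most stretches with Gbp2, had 13.3 in siMyc day 3 and 0.883 with the inhibitor. No list was set against another by a test.

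**Figure D5:**
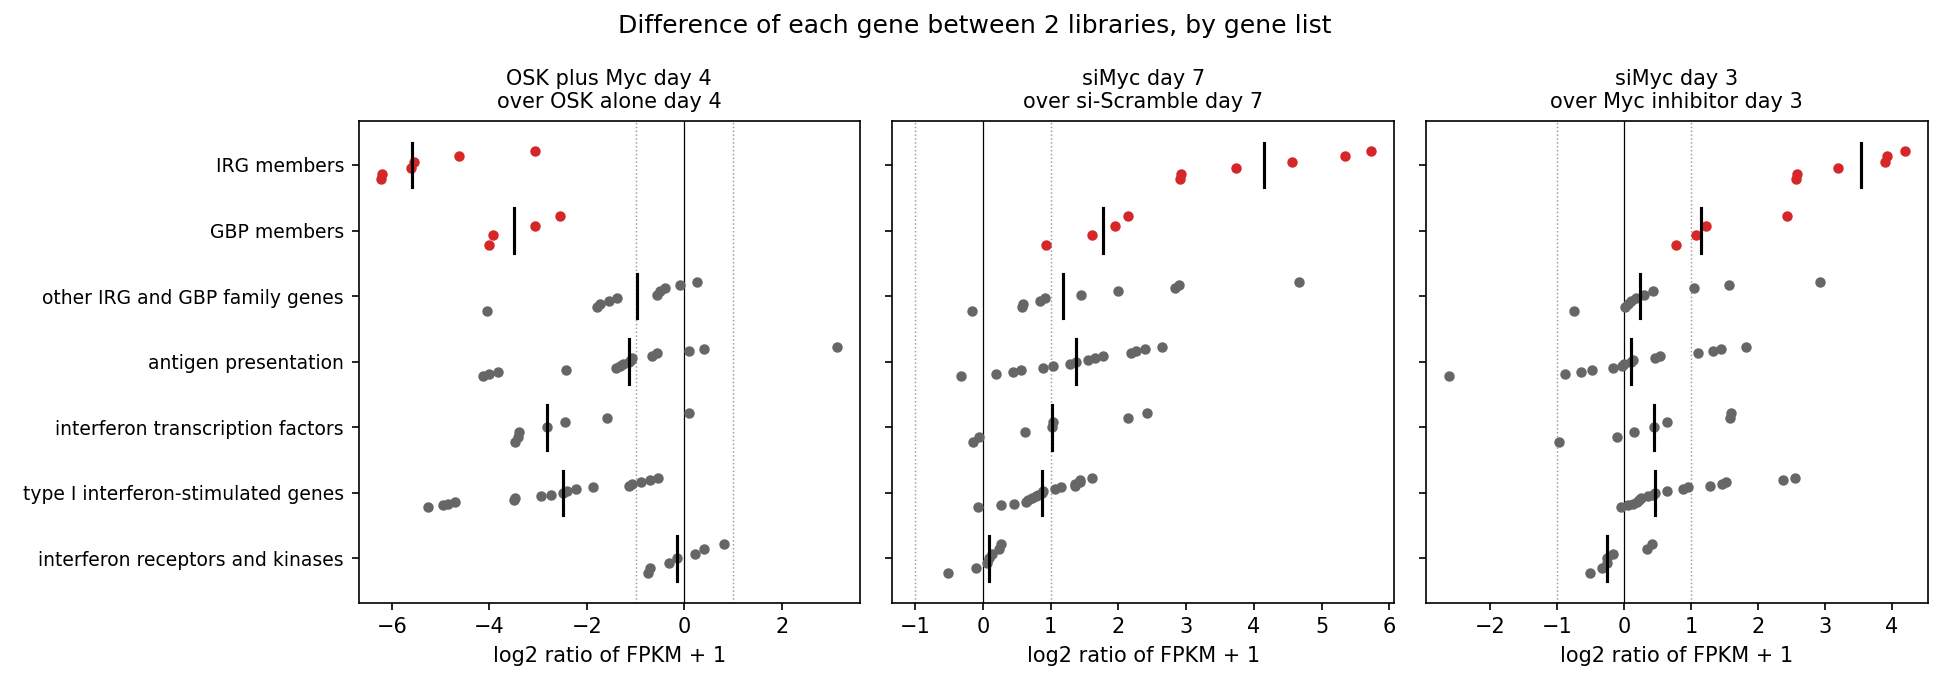
Log2 ratio of FPKM + 1 for each gene of 7 lists in 3 comparisons of single libraries; bars are list medians and dotted lines mark 2-fold. IRG members have medians of -5.58, 4.15 and 3.54; the siMyc day 7 panel is the contrast on which the members were chosen, so their place there reflects that choice.

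Ifng, the gene of interferon gamma, was listed at an FPKM of 1.79 in OSK alone, 0.590 in siMyc day 3, 0.467 in siMyc day 7 and 0.0595 in si-Scramble day 7, and at 0 in the other 5 Myc libraries. The 4 libraries with a value above 0 were thus the 4 in which the members were highest. The part of Ifng in the levels of the members was not tested. Ifnb1 and the 3 listed interferon alpha genes were at 0 in all 9. T and NK cells make interferon gamma; of their 8 markers 1 reached an FPKM of 1 in each of OSK alone (Cd4), siMyc day 3 (Nkg7) and siMyc day 7 (Cd4), and Cd3e was listed at 0 in all 9 libraries. The summed FPKM of these markers was 2.80 in OSK alone, 1.26 in siMyc day 3 and 1.42 in siMyc day 7, against 0.0598 to 0.921 in the other 6 libraries.

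Markers of cell types differed between these libraries as well. In siMyc day 7 relative to si-Scramble day 7, 5 of 6 fibroblast markers were at least 2-fold lower (median -1.43), against 4.17% of all genes kept. Their summed FPKM was 1122 in siMyc and 2945 in si-Scramble. In OSK plus Myc relative to OSK alone, 4 of 5 pluripotent cell markers were at least 2-fold lower (median -1.94), against 15.7% of all genes kept. Their sums were 15.8 in OSK plus Myc and 79.7 in OSK alone. Both endothelial markers kept were lower too, with sums over the list of 15.0 in OSK plus Myc and 34.3 in OSK alone. The summed FPKM of the macrophage markers was 38.1 in siMyc day 7 and 47.2 in si-Scramble day 7, and 28.2 in OSK plus Myc, 12.4 in Myc alone and 87.1 in OSK alone. It was 25.9 in siMyc day 3 and 45.5 with the inhibitor, against 63.6 and 76.6 in si-Scramble MEF. Tyrobp was listed at 0 in all 3 day 4 libraries and at 0.131 in siMyc day 7, and Ptprc was at most 0.438 in any Myc library. Of 8 macrophage markers kept, 2 were at least 2-fold lower in OSK plus Myc than in OSK alone. By the same size 1 was higher and 5 were neither (median -0.17). Itgam had 0.774 in OSK plus Myc and 22.8 in OSK alone, and Laptm5 12.8 in OSK plus Myc and 59.6 in OSK alone. These 2 myeloid genes moved with the members on day 4. Of the 9 macrophage markers, 3 reached an FPKM of 1 in OSK plus Myc, 2 in Myc alone and 3 in OSK alone. A gene near 0 in both libraries cannot differ by 2-fold on FPKM + 1, so the rest of the list says little here. The part of these marker differences in the levels of the members was not tested.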

How the data were processed

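The deposited values are FPKM per gene, made by the authors, in a table for each course system and another for the Myc libraries. CASAVA 1.8.2, TopHat2 2.0.10, Cufflinks 2.2.1 and mm10 are named in the submitters' processing notes. Which annotation release was used, and whether counting used strand, is not stated in the labels or the processing notes; the kit in the labels' protocols does not mark strand. No label speaks of separate cultures. The p-values therefore reflect only how these particular samples vary, which may be technical. A listed 0 can be a failed estimate.

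Course libraries were fitted with limma 3.58.1 (R 4.3.3) on log2(FPKM + 1), which understates changes of low genes, after removing genes that did not reach an FPKM of 1 in 2 libraries. Class (depleted or WT) by stage means were fitted over 24 libraries (20305 genes, 10 residual degrees of freedom), and stage means of the depleted systems over 20 (20198 genes, 9), with the system as a block. The trend and robust options of eBayes were used, with Benjamini-Hochberg adjustment and a threshold of 0.05. The fit was tested on simulated data. The Myc table (16436 genes kept) was described by ratios of FPKM + 1 against a 2-fold size.

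All members are described. Of each gene list up to 4 genes with the largest differences were named, besides Irf1, Ifngr1, Ifng, Ifnb1, Isg15, the Myc genes, Mbd3 and Gatad2a. Zbp1 in WT-1, Gbp5, Irf1 and Isg15 beside single libraries, and the single markers of other cell types were chosen after their values were seen. Some items are not reported here. The members and the lists were chosen with earlier results of these data known. Promoters and starts are RefSeq's (GRCm38.p6) and spans those of GENCODE M21, so a RefSeq start can lie within a longer span. Shared 50-base stretches were counted in GENCODE M21 transcripts. Alternatives were a pseudocount of 0.1, no filter, quantile normalization, no block, Tgtp1 and Tgtp2 added together, a 1.5-fold size, and leaving out each system or si-Scramble MEF library.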

Additional observations from a re-analysis of the deposited data

Results flagged for a closer look

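In 60 checks of the 4 systems at 1 stage each, the WT-2 library stood far above the other 3 for Tgtp2 in MEF (an FPKM of 30.2), for Iigp1 on day 2 (27.7), day 4 (31.0), day 6 (60.4) and day 8 (28.8), and for Gbp3 on day 6 (63.3). Chance gives such a mark in about 1 of 20 groups, and the marks share libraries. For Iigp1 the other 3 systems were at 0.0892 to 0.144 on day 2 and at 0.103 to 0.163 on day 6. Macrophage markers were highest in WT-2 at the same stages, and their part was not tested.

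The Gbp6 entry moved in opposite directions on day 8 relative to MEF, by -1.0 in Mbd3f/- and -0.20 in Gatad2a-/-, against 0.94 in WT-1 and 0.42 in WT-2. The test of the difference between the classes, with n = 2 systems each, gave -1.28 ± 0.93 (limma adjusted p = 0.38). The mean of the 4 changes is 0.04, and the opposite directions were not tested in any other way.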

How the results depend on the processing

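No member called in the main fit, or past 2-fold in the Myc libraries, changed sign there under any alternative run. Estimates that were not called were not followed for sign. Tgtp1 on day 8 relative to MEF stood at 0.5 in the WT systems, with 2.66 in WT-1 and -1.67 in WT-2. The count of members called for iPSC minus MEF was 10, and 3 with no system block (15.5% of all genes fell). Leaving out 1 system gave 2 to 10 (18.6% to 24.4% of all genes fell). Leaving out 1 system gave 0 to 1 for day 2 minus MEF, 0 to 3 for day 8 minus MEF in depleted systems, 0 to 2 in WT systems and 0 to 2 for their difference, all 0 with every system. It gave 0 to 1 for days 1 to 3 minus MEF (4 with both) and 0 to 0 for days 4 to 8 minus days 1 to 3 (3 with both). A pseudocount of 0.1 gave 1 for day 8 minus MEF in depleted systems, 6 for the inhibitor over si-Scramble MEF (1 with a pseudocount of 1) and 1 for OSK plus Myc over Myc alone (0). For days 1 to 3 minus MEF, quantile normalization gave 1 and no system block 2. A 1.5-fold size gave 4 for the inhibitor over si-Scramble MEF, and leaving out 1 si-Scramble MEF library 0 to 1. A class left with 1 system was assumed to vary like the other, and in the day-by-day fit the days of 1 system then stood as repeats of a period. The cause was not tested. Course stages were paired by system through the block. No paired analysis was possible by replicate number, because in the labels only si-Scramble MEF libraries carry one. Over all genes, 233 were called for day 2 minus MEF, with 10 without the block, 49 with a pseudocount of 0.1, 449 with quantile normalization and 4 to 2177 on leaving out a system. Without the block the counts were 6411 for iPSC minus MEF (10754 with it), 2910 (6967), 1 (235) and 847 (3274) for day 8 in depleted systems, WT systems and their difference, 3032 (6818) for days 1 to 3, 3329 (6519) for days 4 to 8 and 581 (1680) for iPSC minus days 4 to 8. With no filter day 8 in WT systems gave 112. Depth is unknown, so low FPKM carry an error that cannot be given; Tgtp1, Tgtp2 and the Gbp6 entry rest on divided reads.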
